A study of Homo sapiens with 12 samples.

Results

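The hypoxia response genes outside glycolysis were followed as a set of 10 genes out of the 52859 genes used from the count table: EGLN3, EGLN1, LOX, P4HA1, CA9, BNIP3, NDRG1, ADM, VEGFA and ANKRD37. They were picked by gene symbol, with earlier results of these data known, and each symbol occurred in the table. Their RNA was measured by RNA-seq in MDA-MB-231, an established human triple-negative breast cancer cell line, in 4 groups of 3 libraries. Cells received 1 oligonucleotide at 20 nM with a lipid transfection reagent and were collected on day 2. The oligonucleotides were the mtAsn-1 LNA and the mtAsn-2 LNA, both directed at the mitochondrial asparagine tRNA, the mtLys LNA, directed at the mitochondrial lysine tRNA, and a control LNA. An LNA (locked nucleic acid) is a short synthetic strand with a stiffened sugar that binds complementary RNA tightly. All groups, the control LNA group included, shared the cell line, the serum-containing medium and the transfection, and no lowered oxygen is named for any of them. The series asks how nuclear transcription of metabolic genes differs when a mitochondrial tRNA is targeted. No label ties a replicate number to a separate culture, so the p-values rest on how far the libraries of a group lie apart, and that distance may be technical.

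Cells sense oxygen largely through the hypoxia-inducible factors (HIFs), transcription factors whose alpha subunits are HIF1A and EPAS1. When oxygen is plentiful, the prolyl hydroxylases EGLN1, EGLN2 and EGLN3 modify the alpha subunit, and the VHL ubiquitin ligase then marks it for destruction. HIF1AN hydroxylates the alpha subunit at another place and hinders its binding to the coactivators EP300 and CREBBP, for which CITED2 competes. Stabilised HIF binds short DNA motifs and switches on genes for glycolysis and, outside glycolysis, for pH control, blood vessel growth, collagen modification, mitochondrial turnover and HIF's own destruction. All of this control of HIF alpha acts on protein, which was not measured here.

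HIF recognises the core motif ACGTG, or less often GCGTG, so the 250 bases before the RefSeq start of each gene (build GRCh38.p14) were searched for both on both strands. For LOX, which has 3 entries, the one farthest upstream was used. Entries were matched for 8 of the 10 genes, all but NDRG1 and VEGFA. A core motif was present in 7 of these 8 windows, and ACGTG in 6 of 8. Over all 35116 RefSeq entries, 43.2% held either motif, 18.5% held ACGTG and 32.2% held GCGTG, and over the 16113 entries of tested genes the shares were 53.9%, 21.9% and 42.4%. The first 2 sequences below belong to the genes that were lowest with the mtAsn-2 LNA relative to the control LNA, EGLN3 and LOX. The other 3 show the motif of EGLN1, of CA9 (the gene with the highest value with the mtAsn-1 LNA relative to the control LNA) and of P4HA1 (the tested gene whose log2 fold change was the smallest in size with each LNA). Each reads 5′ to 3′ on the gene's own strand and is the stretch at chr14:33951075-33951194 (minus), chr5:122078260-122078379 (minus), chr1:231422288-231422317 (minus), chr9:35673897-35673926 (plus) and chr10:73096936-73096965 (minus), in that order. The RefSeq start used for EGLN1 lies 2757 bases inside the gene as the count table has it, that of CA9 119 bases, that of P4HA1 108 bases and that of BNIP3 90 bases, so the printed EGLN1, CA9 and P4HA1 stretches are upstream of the RefSeq start but within the gene spans given below. For the other 4 genes both starts are the same. Capitals mark the core motif, or its reverse complement where it lies on the other strand.
EGLN3: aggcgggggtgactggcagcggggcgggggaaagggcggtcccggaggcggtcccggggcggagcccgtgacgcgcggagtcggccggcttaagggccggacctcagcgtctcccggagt
LOX: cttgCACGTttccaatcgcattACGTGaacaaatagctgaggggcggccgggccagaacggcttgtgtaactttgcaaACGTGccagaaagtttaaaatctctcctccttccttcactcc
EGLN1: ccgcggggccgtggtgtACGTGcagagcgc
CA9: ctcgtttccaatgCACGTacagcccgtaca
P4HA1: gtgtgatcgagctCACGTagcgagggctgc
LOX held 4 ACGTG motifs in the whole window, of which 3 lie in the stretch printed, and EGLN3 held none of either kind. EGLN1, CA9 and P4HA1 held 1 ACGTG each, and ADM held 1 GCGTG. BNIP3 held 2 ACGTG and 4 GCGTG, and ANKRD37 held 3 ACGTG. In both BNIP3 and ANKRD37, 2 of the ACGTG matches are the overlapping readings of 1 palindrome, CACGTG, which is also the E-box bound by other factors. A match describes the letters only, and a window without one says nothing about binding of HIF elsewhere.

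**Figure D1:**
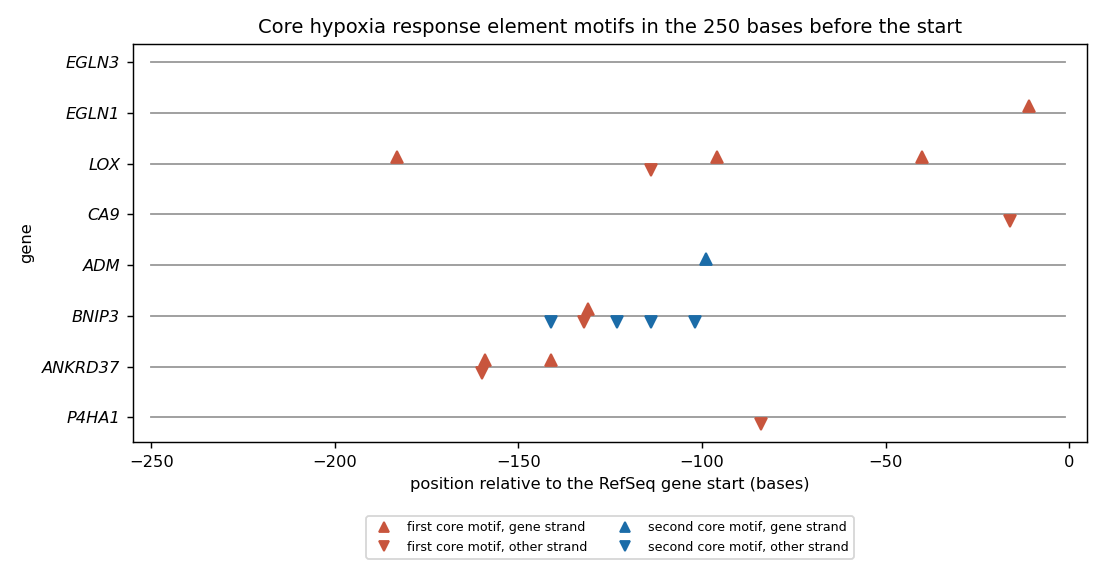
Positions of the core HIF motifs ACGTG (first core motif) and GCGTG (second core motif), on either strand, in the 250 bases before the RefSeq start, with 1 row for each of the 8 genes that had an entry and the distance to the start in bases on the x axis. LOX carries 4 motifs and BNIP3 carries 6, whereas EGLN3 carries none.

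Total counts ran between 17978825 and 37708993 a library, and 16051 genes passed the filter on low counts. Neither targeted tRNA checks the labels. The gene of the mitochondrial asparagine tRNA had 1 to 6 counts in every library. That of the lysine tRNA (TRNK) had 7.55, 8.29 and 7.37 CPM (TMM-scaled counts relative to the library total) with the mtLys LNA and 6.80, 5.88 and 5.93 with the control LNA, so it was not lower in the group labelled as targeting it (log2 fold change 0.32 ± 0.15, SE, edgeR adjusted p = 0.0979). That value passed the test with no filter on low counts (0.0085) or with the compared groups alone (0.0102). It also passed without mtAsn-1 replicate 1 (0.0489), mtAsn-1 replicate 3 (0.0434) or mtAsn-2 replicate 3 (0.0342). TRNK had 0.36 ± 0.16 with the mtAsn-1 LNA (adjusted p = 0.0748) and 0.44 ± 0.15 with the mtAsn-2 LNA (adjusted p = 0.0205, edgeR). The mtAsn-1 value passed with no filter on low counts (0.00492), the compared groups alone (0.0331) or libraries thinned to the smallest total (0.0356). The same held without mtAsn-1 replicate 1 (0.00857) and without mtAsn-2 replicate 2 (0.0355) or 3 (0.0224). The mtAsn-2 call was lost without control replicate 2 (0.0872) or 3 (0.0625) and without mtAsn-2 replicate 1 (0.0559) or 2 (0.0913). The sources used here do not say whether an LNA was meant to lower the level of its tRNA. Whether these counts follow the level of the tRNA itself was not tested. Of 8 markers of mesenchymal-like breast cancer lines, 6 were well expressed in the control LNA group (between 80.3 CPM for ZEB1 and 3277 for VIM), whereas SPARC averaged 3.55 CPM and CDH2 0.307. Of 8 luminal markers, KRT19 averaged 344.6 CPM there, GATA3 13.4, ERBB3 7.37 and EPCAM 4.39, and ESR1, PGR, CDH1 and FOXA1 stayed at or below 0.578 in every library. The summed mesenchymal-like markers (8 of 8 genes tested) lay between 7656 and 8281 CPM with the mtAsn-1 LNA, 6489 and 6616 with the mtAsn-2 LNA, 7596 and 8055 with the mtLys LNA, and 6701 and 6940 with the control LNA. The luminal markers (6 of 8 tested) summed to between 364.7 and 433.5 CPM with the mtAsn-1 LNA, 269.3 and 305.7 with the mtAsn-2 LNA, 360.9 and 411.1 with the mtLys LNA, and 364.0 and 374.4 with the control LNA. Of 6 leukocyte markers, CD68 carried nearly all of the sum (96.4 to 121.7, 90.95 to 101.3, 96.7 to 107.5 and 78.2 to 81.5 CPM in the same order of groups), and PTPRC stayed at or below 0.343. The 5 endothelial markers summed to between 10.3 and 18.8 CPM over all libraries, nearly all of it PECAM1, with CDH5 at 0 in 11 of 12 libraries. Among the mtLys libraries, replicate 2 was the lowest of its group for 9 of 9 tested hypoxia genes. The part of these differences in the results was not tested.

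With the mtAsn-2 LNA the tested hypoxia genes that passed the test were all lower than with the control LNA, whereas the mtAsn-1 LNA and mtLys LNA groups held both higher and lower genes. Of the 9 genes tested, 4 rose and 3 fell with the mtAsn-1 LNA, beside 24.3% of all tested genes that rose, 24.2% that fell and 48.5% called in either direction. With the mtAsn-2 LNA, 0 rose and 7 fell, beside 24.1% and 27.0% of all tested genes, and 51.1% in either direction. With the mtLys LNA, 3 rose and 2 fell, beside 24.6% and 23.9%, and 48.5% in either direction. The libraries of the targeted and control groups did not overlap for 7 of the 9 genes with the mtAsn-1 LNA (53.8% of all tested genes), 7 with the mtAsn-2 LNA (56.8%) and 5 with the mtLys LNA (56.3%). Calls are from edgeR's quasi-likelihood test on all 12 libraries with a Benjamini-Hochberg adjusted p under 0.05 over all tested genes. At an unadjusted p under 0.05, the count of genes higher with the mtAsn-2 LNA was also 0, and DESeq2 gave 0 higher and 6 lower. The median log2 fold change of the 9 genes was 0.15 with the mtAsn-1 LNA, -0.29 with the mtAsn-2 LNA and 0.16 with the mtLys LNA. Over all tested genes the medians were -0.0035, -0.0071 and -0.0005 in the same order. The 3 comparisons share the same control libraries. These genes and the lists below were chosen with earlier results of these data known. Their counts beside the shares of all tested genes are therefore descriptions and no test of a list. In RNA from whole cultures, fewer cells expressing a gene and less RNA per cell cannot be told apart.

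**Figure D2:**
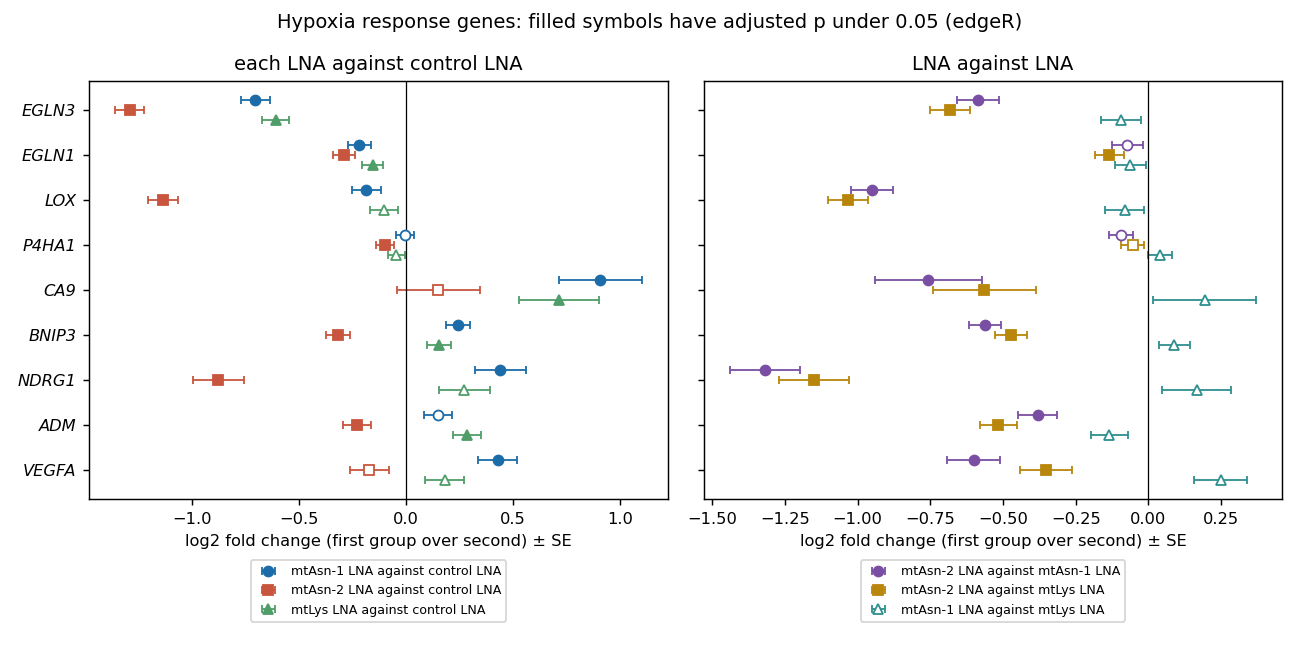
Log2 fold change (points, with bars of 1 standard error) of the 9 tested hypoxia genes, for each LNA against the control LNA on the left and for LNA against LNA on the right, filled where the adjusted p is under 0.05. With the mtAsn-2 LNA 7 of the 9 genes are called lower, with EGLN3 at -1.29 and LOX at -1.14, whereas CA9 is highest with the mtAsn-1 LNA at 0.91.

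The oxygen sensors EGLN3 and EGLN1 were the only 2 of the 9 tested genes that fell with all 3 LNAs, a pattern that 12.7% of all tested genes shared. EGLN3 (chromosome 14, 33924227 to 33951074, minus strand, hg38) encodes a prolyl hydroxylase that is itself a HIF target. It had 21.1, 19.7 and 20.2 CPM with the mtAsn-1 LNA, 13.5, 13.1 and 13.9 with the mtAsn-2 LNA, 22.5, 19.4 and 23.4 with the mtLys LNA, and 32.5, 33.8 and 33.0 with the control LNA. Every library of the 3 targeted groups was below every control library, and the mtAsn-2 libraries were the lowest of all. The log2 fold change was -0.70 ± 0.068 with the mtAsn-1 LNA (SE, adjusted p = 1.43e-09), -1.29 ± 0.068 with the mtAsn-2 LNA (adjusted p = 3.2e-15) and -0.61 ± 0.064 with the mtLys LNA (adjusted p = 7.49e-09, edgeR). EGLN3 RNA thus fell by 38.6% with the mtAsn-1 LNA, fell by 59.1% with the mtAsn-2 LNA and fell by 34.4% with the mtLys LNA. EGLN1 (chromosome 1, 231363751 to 231425044, minus strand), the main oxygen sensor of the family, had 59.6, 53.4 and 57.5 CPM with the mtAsn-1 LNA, 57.9, 53.5 and 50.95 with the mtAsn-2 LNA, 60.8, 57.9 and 59.6 with the mtLys LNA, and 67.0, 66.9 and 64.4 with the control LNA. Its groups were again separate from the controls, but by much less. The log2 fold change of EGLN1 was -0.22 ± 0.053 with the mtAsn-1 LNA (adjusted p = 0.00111), -0.29 ± 0.051 with the mtAsn-2 LNA (adjusted p = 2.36e-05) and -0.16 ± 0.051 with the mtLys LNA (adjusted p = 0.0126, edgeR). The mtLys call for EGLN1 was lost without mtLys replicate 2 (adjusted p = 0.0679). The third family member, EGLN2, had 0 to 7 counts a library and was not tested. It shares 91.5% of its exon length with the readthrough gene RAB4B-EGLN2, so its counts are uncertain.

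The 2 enzymes of the extracellular matrix differed from each other. LOX (chromosome 5, 122063195 to 122078259, minus strand), which crosslinks collagen and elastin, was lower with the mtAsn-2 LNA, whereas P4HA1, the catalytic subunit of the collagen prolyl 4-hydroxylase, moved little in any group. LOX had 39.8, 40.8 and 39.3 CPM with the mtAsn-1 LNA, 20.4, 19.5 and 22.1 with the mtAsn-2 LNA, 45.96, 38.2 and 42.5 with the mtLys LNA, and 47.4, 41.1 and 48.2 with the control LNA. The mtAsn-2 libraries stood far below all others, and the mtLys libraries overlapped the controls. LOX fell by 54.5% with the mtAsn-2 LNA (log2 fold change -1.14 ± 0.070, adjusted p = 4.17e-13, edgeR). With the mtAsn-1 LNA its log2 fold change was -0.19 ± 0.068 (adjusted p = 0.0263), a call that was lost (adjusted p in brackets) without control replicate 1 (0.106), control replicate 3 (0.112), mtAsn-1 replicate 1 (0.0624) or mtAsn-1 replicate 3 (0.0824). With the mtLys LNA the log2 fold change of LOX was -0.10 ± 0.066 (adjusted p = 0.2) and passed the test only without control replicate 2 (0.0365) or mtLys replicate 1 (0.0472). P4HA1 (chromosome 10, 73007217 to 73096974, minus strand) had 159.0, 153.9 and 161.4 CPM with the mtAsn-1 LNA, 151.4, 150.6 and 142.6 with the mtAsn-2 LNA, 158.9, 147.6 and 155.3 with the mtLys LNA, and 156.0, 156.1 and 164.4 with the control LNA. The mtAsn-2 libraries lay just below the controls, and the other groups overlapped them. The mtAsn-2 log2 fold change of P4HA1 was -0.10 ± 0.041 (adjusted p = 0.0477, edgeR), and the call was lost under 16 of 19 alternative settings (adjusted p = 0.0554 with control replicate 2 left out).

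CA9, BNIP3 and NDRG1, which act in pH control, mitochondrial turnover and stress signalling, were higher with the mtAsn-1 LNA than with the control LNA. CA9 (chromosome 9, 35673809 to 35681159, plus strand) encodes a carbonic anhydrase of the cell surface that helps keep cytoplasmic pH steady. It had 24.98, 31.1 and 23.2 CPM with the mtAsn-1 LNA, 14.2, 16.3 and 16.0 with the mtAsn-2 LNA, 26.9, 17.02 and 24.8 with the mtLys LNA, and 15.3, 12.1 and 14.7 with the control LNA. The mtAsn-1 and mtLys libraries lay above the controls, mtLys replicate 2 only narrowly, and the mtAsn-2 libraries overlapped them. CA9 rose with the mtAsn-1 LNA (log2 fold change 0.91 ± 0.19, adjusted p = 0.00345) and with the mtLys LNA (0.72 ± 0.19, adjusted p = 0.0109), and had a log2 fold change of 0.15 ± 0.20 with the mtAsn-2 LNA (adjusted p = 0.558, edgeR). The highest coefficient of variation of a tested hypoxia gene was that of CA9 among the mtLys libraries, 22.7%.

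BNIP3 (chromosome 10, 131967683 to 131982013, minus strand) encodes an outer mitochondrial membrane receptor for mitophagy, the removal of mitochondria. It had 196.4, 206.4 and 182.8 CPM with the mtAsn-1 LNA, 133.3, 133.7 and 129.3 with the mtAsn-2 LNA, 197.1, 163.0 and 189.7 with the mtLys LNA, and 162.6, 163.3 and 168.0 with the control LNA. All mtAsn-1 libraries were above the controls, all mtAsn-2 libraries were below them, and the mtLys libraries overlapped them through replicate 2. BNIP3 rose with the mtAsn-1 LNA (log2 fold change 0.24 ± 0.055, adjusted p = 0.000729) and fell with the mtAsn-2 LNA (-0.32 ± 0.055, adjusted p = 3.48e-05, edgeR). Its mtLys log2 fold change was 0.16 ± 0.054 (adjusted p = 0.021). Without mtLys replicate 2 that value was 0.24 (adjusted p = 0.000157), and without mtLys replicate 1 it was 0.10 (adjusted p = 0.152). The mtLys call was also lost without mtLys replicate 3 (0.0877), control replicate 1 (0.0628) or control replicate 2 (0.0623). Of the exon length of BNIP3, 15.7% overlaps PPP2R2D on the opposite strand, and the sources used here do not say whether counting used strand. The pseudogene BNIP3P1 had 59 to 129 counts a library, against 3142 or more for BNIP3.

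NDRG1 (chromosome 8, 133237171 to 133297587, minus strand), a stress-responsive gene linked to differentiation and metastasis, had the highest level per length of the set: 154.4 ± 12.6 RPKM in the control LNA group (CPM per kilobase of exon, SD, n = 3). It had 1069, 1241 and 999 CPM with the mtAsn-1 LNA, 406.0, 413.5 and 506.9 with the mtAsn-2 LNA, 1074, 890.7 and 982.0 with the mtLys LNA, and 877.1, 744.2 and 815.8 with the control LNA. The 3 targeted groups were each separate from the controls, the mtAsn-2 libraries below them and the others above. NDRG1 fell by 45.6% with the mtAsn-2 LNA (log2 fold change -0.88 ± 0.12, adjusted p = 0.000229) and rose with the mtAsn-1 LNA (0.44 ± 0.12, adjusted p = 0.0136, edgeR). Leaving out control replicate 2 or mtAsn-1 replicate 2 ended the mtAsn-1 call of NDRG1 (adjusted p = 0.0502 and 0.0521). Its mtLys log2 fold change was 0.27 ± 0.12 (adjusted p = 0.0885, edgeR) and passed with the 2 groups compared fitted alone (0.0107) or without mtAsn-2 replicate 3 (0.0455), a library of another group that shares the estimate of spread.

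**Figure D3:**
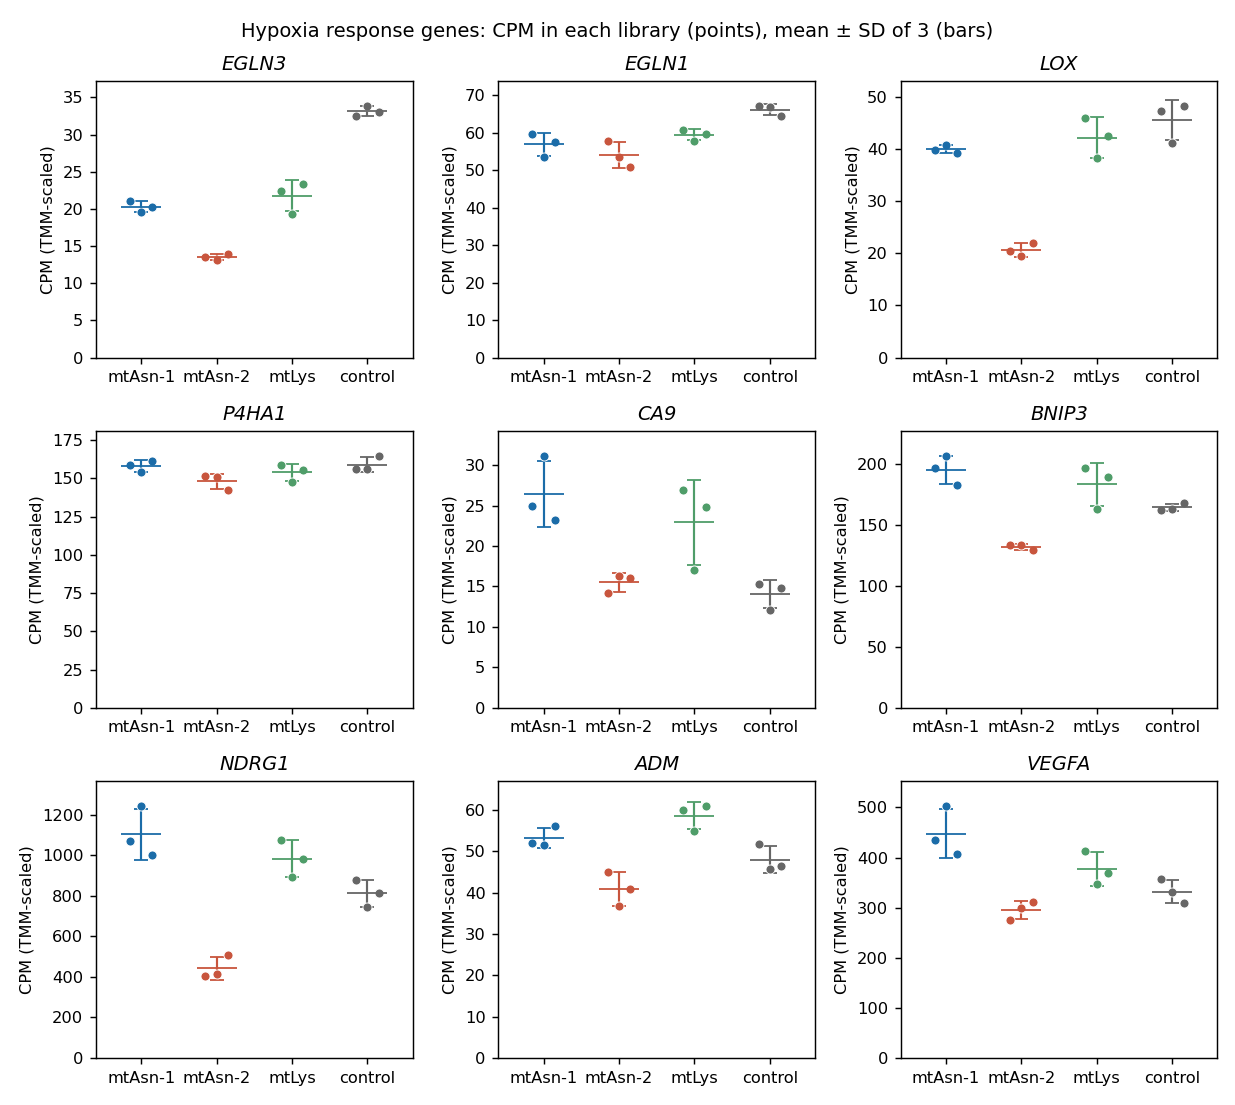
CPM (TMM-scaled) in each of the 12 libraries (points) with the group mean ± SD (bars, n = 3), 1 panel for each of the 9 tested hypoxia genes, in the order mtAsn-1 LNA, mtAsn-2 LNA, mtLys LNA and control LNA. EGLN3 is lower in every targeted library than in any control library, whereas for NDRG1 the mtAsn-2 libraries (406.0 to 506.9) lie below the controls and the mtAsn-1 libraries (999 to 1241) above them.

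Of the secreted factors, VEGFA rose with the mtAsn-1 LNA, whereas ADM rose with the mtLys LNA and fell with the mtAsn-2 LNA. VEGFA (chromosome 6, 43770209 to 43786487, plus strand), the main growth factor for blood vessels, had 434.8, 502.1 and 406.9 CPM with the mtAsn-1 LNA, 275.1, 298.9 and 311.5 with the mtAsn-2 LNA, 413.8, 346.9 and 369.4 with the mtLys LNA, and 356.4, 330.6 and 309.5 with the control LNA. Only the mtAsn-1 libraries were separate from the controls. VEGFA rose with the mtAsn-1 LNA by 34.6% (log2 fold change 0.43 ± 0.091, adjusted p = 0.00265), and its log2 fold changes of -0.17 ± 0.091 with the mtAsn-2 LNA (adjusted p = 0.144) and 0.18 ± 0.091 with the mtLys LNA (adjusted p = 0.128) missed the threshold (edgeR). With the 2 groups compared fitted alone, both passed (adjusted p = 0.0135 with the mtAsn-2 LNA and 0.0314 with the mtLys LNA). The mtLys value also passed with no filter on low counts (0.0405). ADM (chromosome 11, 10305073 to 10307397, plus strand), the precursor of the vasodilator adrenomedullin, had 52.0, 51.6 and 56.2 CPM with the mtAsn-1 LNA, 45.1, 36.9 and 40.9 with the mtAsn-2 LNA, 60.1, 54.96 and 60.9 with the mtLys LNA, and 51.9, 45.7 and 46.6 with the control LNA. The mtLys libraries lay above the controls, the mtAsn-2 libraries below, and the mtAsn-1 libraries overlapped them. ADM rose with the mtLys LNA (log2 fold change 0.29 ± 0.064, adjusted p = 0.000666) and fell with the mtAsn-2 LNA (-0.23 ± 0.066, adjusted p = 0.00483, edgeR), the second call being lost without mtAsn-2 replicate 2 (0.0594). With the mtAsn-1 LNA its log2 fold change was 0.15 ± 0.067 (adjusted p = 0.0639), and it passed under 7 of 19 alternative settings, among them without control replicate 1 (0.0155), mtAsn-2 replicate 1 (0.0376) or mtAsn-2 replicate 2 (0.0403).

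ANKRD37 (chromosome 4, 185396841 to 185400243, plus strand), an ankyrin-repeat gene known as a HIF target, had 2 to 3 counts a library with the mtAsn-1 LNA, 1 to 3 with the mtAsn-2 LNA, 1 to 4 with the mtLys LNA and 2 to 4 with the control LNA. With so few counts no difference between groups was detectable, and it was the only gene of the set that did not pass the filter. It shares 89.4% of its exon length with UFSP2 and LRP2BP on the opposite strand, so its counts are uncertain too. Per length, the order of the set in the control LNA group was NDRG1, BNIP3 (100.8 ± 1.78 RPKM), VEGFA (87.5 ± 6.18), P4HA1 (52.7 ± 1.61), ADM (32.2 ± 2.26), EGLN3 (12.2 ± 0.248), EGLN1 (9.31 ± 0.208), LOX (8.60 ± 0.736), CA9 (7.90 ± 0.961) and ANKRD37 (0.104 ± 0.041), each the mean with SD over 3 libraries. EGLN1, LOX and CA9, which follow each other in that order, differed from their neighbour by less than the sum of their SDs.

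Set against each other, the mtAsn-2 LNA gave less RNA of most hypoxia genes than the mtAsn-1 LNA, although both are directed at the same tRNA. Of the 9 tested genes, 0 were higher and 7 were lower with the mtAsn-2 LNA than with the mtAsn-1 LNA (edgeR, 21.9% and 24.6% of all tested genes, and 46.5% in either direction), with 0 higher and 8 lower at an unadjusted p under 0.05 and 0 higher and 7 lower by DESeq2. The libraries did not overlap for 8 of the 9 genes, beside 52.7% of all tested genes. The log2 fold changes of mtAsn-2 over mtAsn-1 were -1.32 ± 0.12 for NDRG1 (adjusted p = 1.82e-05), -0.95 ± 0.072 for LOX (adjusted p = 2.78e-11), -0.76 ± 0.18 for CA9 (adjusted p = 0.00761), -0.60 ± 0.091 for VEGFA (adjusted p = 0.000282), -0.59 ± 0.073 for EGLN3 (adjusted p = 1.24e-07), -0.56 ± 0.055 for BNIP3 (adjusted p = 1.06e-08) and -0.38 ± 0.066 for ADM (adjusted p = 3.64e-05). EGLN1 (-0.07 ± 0.052, adjusted p = 0.268) and P4HA1 (-0.09 ± 0.042, adjusted p = 0.0657) missed the threshold, and P4HA1 passed without mtAsn-1 replicate 2 (0.0427).

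The mtAsn-2 LNA also gave lower levels than the mtLys LNA. Here 0 of the 9 tested genes were higher and 8 were lower (edgeR, 22.9% and 25.7% of all tested genes, and 48.6% in either direction), with 0 higher and 8 lower at an unadjusted p under 0.05 and 0 higher and 7 lower by DESeq2. The libraries did not overlap for 7 of the 9 genes, beside 56.6% of all tested genes. NDRG1 had a log2 fold change of -1.15 ± 0.12 (adjusted p = 4.23e-05), LOX of -1.03 ± 0.069 (adjusted p = 2.07e-12) and EGLN3 of -0.68 ± 0.069 (adjusted p = 2.52e-09). CA9 (-0.56 ± 0.18, adjusted p = 0.0262) and EGLN1 (-0.13 ± 0.051, adjusted p = 0.0292) each lost the call under 7 of 19 alternatives. For CA9 these included leaving out mtAsn-2 replicate 1 (0.0933), 2 (0.0522) or 3 (0.058) and mtLys replicate 1 (0.0775) or 3 (0.074). For EGLN1 they included leaving out mtAsn-2 replicate 2 (0.105) or 3 (0.162) and mtLys replicate 1 (0.109) or 3 (0.0707). P4HA1 was the gene that missed the threshold (-0.05 ± 0.041, adjusted p = 0.283).

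The mtAsn-1 LNA and the mtLys LNA, directed at different tRNAs, gave no called difference in any of the 9 tested hypoxia genes (0 higher and 0 lower by edgeR, and 0 and 0 by DESeq2). In that comparison 2.12% of all tested genes were higher and 3.14% lower (5.26% in all). The libraries overlapped for each of the 9 genes, whereas 24.1% of all tested genes had groups that did not overlap. At an unadjusted p under 0.05, VEGFA was higher with the mtAsn-1 LNA (log2 fold change 0.25 ± 0.091, adjusted p = 0.173) and ADM lower (-0.13 ± 0.064, adjusted p = 0.266). The largest log2 fold change in size after VEGFA was that of CA9, 0.19 ± 0.18 (adjusted p = 0.63, edgeR). A p that misses the threshold does not show that the groups had the same level.

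The machinery that controls HIF was described from a list of 15 genes, of which 13 were tested. With the mtAsn-1 LNA 2 rose and 7 fell, with the mtAsn-2 LNA 1 rose and 10 fell, and with the mtLys LNA 3 rose and 6 fell. Of all tested genes, 24.3% rose and 24.2% fell with the mtAsn-1 LNA. These shares were 24.1% and 27.0% with the mtAsn-2 LNA, and 24.6% and 23.9% with the mtLys LNA. The list's median log2 fold changes were -0.16, -0.30 and -0.10. HIF1A, the alpha subunit found in nearly all cell types, averaged 557.0 ± 40.0 CPM with the mtAsn-1 LNA, 475.5 ± 4.47 with the mtAsn-2 LNA, 532.0 ± 8.22 with the mtLys LNA and 569.9 ± 14.6 with the control LNA (SD, n = 3 each). It fell with the mtAsn-2 LNA (log2 fold change -0.26 ± 0.042, adjusted p = 5.65e-06) and had values of -0.03 ± 0.042 with the mtAsn-1 LNA (adjusted p = 0.536) and -0.10 ± 0.042 with the mtLys LNA (adjusted p = 0.0502, edgeR). The mtLys value passed under 6 of 19 alternatives, among them without mtAsn-1 replicate 1 (0.0485) or 2 (0.0161), and the mtAsn-1 value passed without mtAsn-1 replicate 2 (0.0486). Of the exon length of HIF1A, 31.2% overlaps its antisense genes. EPAS1, the second alpha subunit, averaged 119.4 ± 4.04 CPM with the mtAsn-1 LNA, 92.8 ± 6.35 with the mtAsn-2 LNA, 131.4 ± 2.59 with the mtLys LNA and 106.5 ± 3.55 with the control LNA. EPAS1 rose with the mtAsn-1 LNA (log2 fold change 0.16 ± 0.047, adjusted p = 0.0048) and the mtLys LNA (0.30 ± 0.046, adjusted p = 3.3e-06) and fell with the mtAsn-2 LNA (-0.20 ± 0.047, adjusted p = 0.000741).

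Of the negative regulators, VHL, which recognises hydroxylated HIF alpha, averaged 104.9 ± 6.32 CPM with the mtAsn-1 LNA, 136.1 ± 2.76 with the mtAsn-2 LNA, 98.7 ± 4.63 with the mtLys LNA and 133.0 ± 3.84 with the control LNA (SD, n = 3 each). VHL fell with the mtAsn-1 LNA (log2 fold change -0.35 ± 0.046, adjusted p = 4.86e-07) and the mtLys LNA (-0.43 ± 0.046, adjusted p = 7.76e-09), with a value of 0.03 for the mtAsn-2 LNA (adjusted p = 0.585, edgeR). HIF1AN, the asparaginyl hydroxylase, rose with all 3 LNAs: its log2 fold change was 0.25 ± 0.042 with the mtAsn-1 LNA (adjusted p = 1.19e-05), 0.49 ± 0.041 with the mtAsn-2 LNA (adjusted p = 5.94e-11) and 0.28 ± 0.041 with the mtLys LNA (adjusted p = 2.14e-06). CITED2, which competes with HIF for coactivators, had 52.97 ± 3.54 CPM with the mtAsn-1 LNA, 55.2 ± 1.95 with the mtAsn-2 LNA, 64.4 ± 0.877 with the mtLys LNA and 94.2 ± 3.29 with the control LNA. It fell by 43.9% with the mtAsn-1 LNA (adjusted p = 1.39e-13), fell by 41.4% with the mtAsn-2 LNA (adjusted p = 1.53e-13) and fell by 31.7% with the mtLys LNA (adjusted p = 1.95e-10, edgeR). The coactivator EP300 fell with the mtAsn-1 LNA (log2 fold change -0.42 ± 0.050, adjusted p = 4.81e-08), the mtAsn-2 LNA (-0.61 ± 0.049, adjusted p = 2.54e-11) and the mtLys LNA (-0.36 ± 0.049, adjusted p = 5.83e-07, edgeR).

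**Figure D4:**
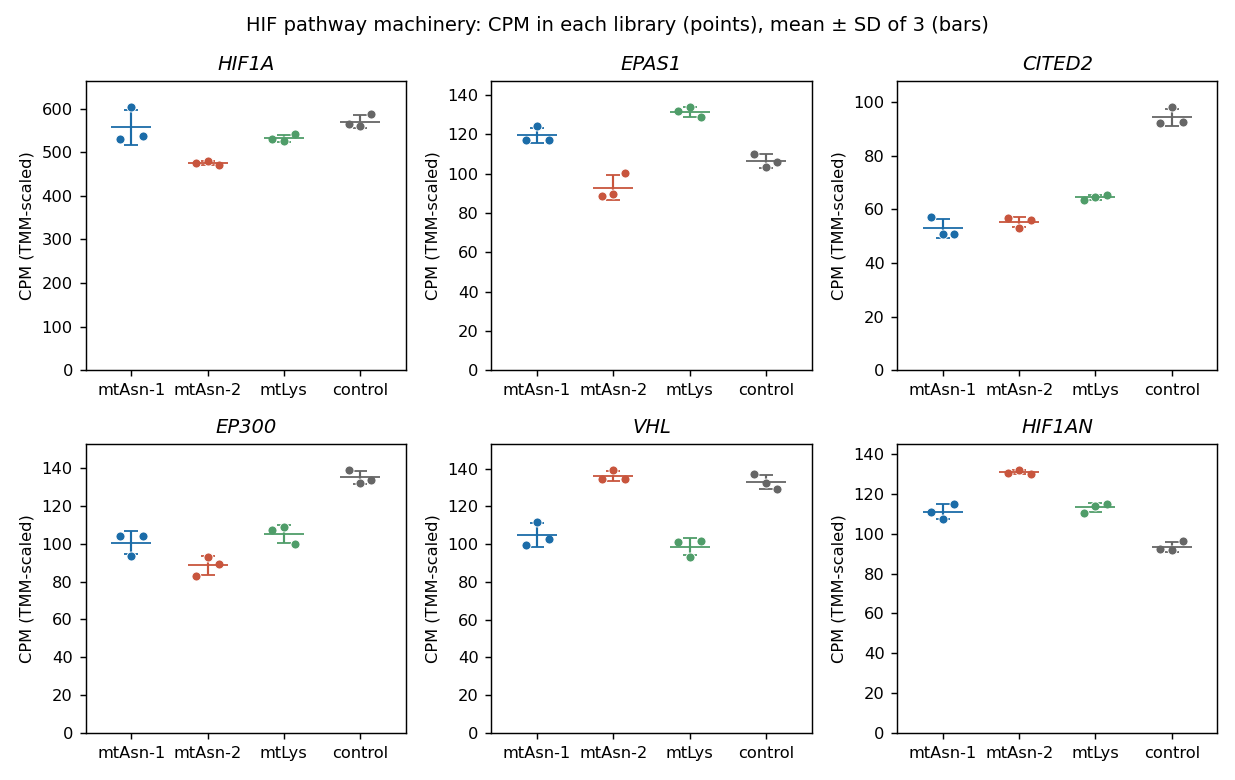
CPM (TMM-scaled) in each of the 12 libraries (points) with the group mean ± SD (bars, n = 3) for 6 genes that control HIF, in the order mtAsn-1 LNA, mtAsn-2 LNA, mtLys LNA and control LNA. CITED2 is lower in all targeted libraries than in the controls (group mean 94.2), and VHL is lower with the mtAsn-1 LNA and mtLys LNA but not with the mtAsn-2 LNA (136.1 against 133.0 with the control LNA).

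Among 21 other hypoxia-induced genes outside glycolysis, all tested, 11 rose and 5 fell with the mtAsn-1 LNA, 2 rose and 9 fell with the mtAsn-2 LNA, and 10 rose and 4 fell with the mtLys LNA. The median log2 fold changes of the 21 genes were 0.14, -0.15 and 0.09. Of all tested genes, 24.3% rose and 24.2% fell with the mtAsn-1 LNA. These shares were 24.1% and 27.0% with the mtAsn-2 LNA, and 24.6% and 23.9% with the mtLys LNA. LOXL2, a relative of LOX that crosslinks collagen, rose with the mtAsn-1 LNA (log2 fold change 0.47 ± 0.044, adjusted p = 1e-09) and the mtLys LNA (0.58 ± 0.044, adjusted p = 1.29e-11). PLOD1, a collagen lysyl hydroxylase, rose with the same 2 LNAs (0.39 ± 0.046 with the mtAsn-1 LNA and 0.43 ± 0.046 with the mtLys LNA). With the mtAsn-2 LNA, LOXL2 had -0.05 ± 0.044 (adjusted p = 0.392) and PLOD1 0.09 ± 0.046 (adjusted p = 0.0971, edgeR). The PLOD1 value passed without control replicate 3 (0.0267), with no filter on low counts (0.014) or with the compared groups alone (0.041). ANGPTL4, an inhibitor of lipoprotein lipase, rose with every LNA (0.29 ± 0.073 with the mtAsn-1 LNA, 0.61 ± 0.069 with the mtAsn-2 LNA and 0.67 ± 0.069 with the mtLys LNA; adjusted p = 0.00184, 6.48e-08 and 2.23e-08, edgeR). DDIT4, an inhibitor of mTORC1 signalling, fell with every LNA (-0.37 ± 0.052 with the mtAsn-1 LNA, -0.57 ± 0.052 with the mtAsn-2 LNA and -0.69 ± 0.052 with the mtLys LNA). KDM3A, a histone demethylase, also fell with every LNA (-0.18 ± 0.053 with the mtAsn-1 LNA, -0.45 ± 0.052 with the mtAsn-2 LNA and -0.17 ± 0.052 with the mtLys LNA). The KDM3A calls were lost without mtAsn-1 replicate 1 in the first of these comparisons (adjusted p = 0.0657) and without mtLys replicate 2 in the last (adjusted p = 0.0828, edgeR). TMEM45A fell with the mtAsn-1 LNA (-0.28 ± 0.066) and the mtAsn-2 LNA (-0.79 ± 0.065), and had -0.02 ± 0.062 with the mtLys LNA (adjusted p = 0.786). STC2, a secreted glycoprotein, fell with the mtAsn-1 LNA (-0.80 ± 0.17), and had -0.15 ± 0.15 with the mtAsn-2 LNA (adjusted p = 0.435) and -0.32 ± 0.15 with the mtLys LNA (adjusted p = 0.0884). The mtLys value of STC2 passed with libraries thinned to the smallest total (0.0409, edgeR).

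The glycolytic HIF targets, from which the set was kept apart, numbered 20 tested genes. Of these 20, 10 rose and 3 fell with the mtAsn-1 LNA, 0 rose and 17 fell with the mtAsn-2 LNA, and 8 rose and 4 fell with the mtLys LNA. Their median log2 fold changes were 0.11 with the mtAsn-1 LNA, -0.30 with the mtAsn-2 LNA and 0.07 with the mtLys LNA. Over all tested genes, 24.3% rose and 24.2% fell with the mtAsn-1 LNA. These shares were 24.1% and 27.0% with the mtAsn-2 LNA, and 24.6% and 23.9% with the mtLys LNA. SLC2A3, a glucose transporter, fell with each LNA (-0.79 ± 0.059 with the mtAsn-1 LNA, -0.89 ± 0.058 with the mtAsn-2 LNA and -0.92 ± 0.058 with the mtLys LNA). PKM, a pyruvate kinase, did so too (-0.21 ± 0.037, -0.64 ± 0.038 and -0.18 ± 0.037 in the same order), as did the aldolase ALDOA (-0.32 ± 0.074, -0.72 ± 0.072 and -0.47 ± 0.071). GPI, the enzyme of the second glycolytic step, rose with the mtAsn-1 LNA (0.50 ± 0.041) and the mtLys LNA (0.44 ± 0.041), as did the phosphofructokinase PFKL (0.34 ± 0.043 and 0.25 ± 0.042) and PDK1, which limits entry of pyruvate into the citric acid cycle (0.50 ± 0.076 and 0.71 ± 0.073). With the mtAsn-2 LNA these 3 genes had log2 fold changes of 0.06 ± 0.041 for GPI (adjusted p = 0.221), -0.02 ± 0.042 for PFKL (adjusted p = 0.7) and 0.14 ± 0.075 for PDK1 (adjusted p = 0.113, edgeR). The PDK1 value passed with no filter on low counts (0.0216) or with the compared groups alone (0.0426). ALDOA shares 35.7% of its exon length with LOC112694756 and GPI 20.3% with KIAA0355, both on the same strand, so their counts are less certain.

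Receptors, paralogs and partners of the set made up a list of 22 genes, of which 17 were tested. Here 8 rose and 5 fell with the mtAsn-1 LNA, 5 rose and 7 fell with the mtAsn-2 LNA, and 8 rose and 5 fell with the mtLys LNA. Over all tested genes, 24.3% rose and 24.2% fell with the mtAsn-1 LNA. These shares were 24.1% and 27.0% with the mtAsn-2 LNA, and 24.6% and 23.9% with the mtLys LNA. NRP1, a coreceptor for VEGFA, averaged 700.2 ± 28.6 CPM with the mtAsn-1 LNA, 503.1 ± 3.64 with the mtAsn-2 LNA, 686.2 ± 29.99 with the mtLys LNA and 356.0 ± 13.2 with the control LNA (SD, n = 3 each). It rose with all 3 LNAs (log2 fold change 0.98 ± 0.041, 0.50 ± 0.041 and 0.95 ± 0.041, edgeR adjusted p = 1.01e-16, 3.92e-11 and 1.92e-16). ADM5, a relative of ADM, had 5.67, 2.69 and 5.21 CPM with the mtAsn-1 LNA, 4.40, 4.84 and 4.63 with the mtAsn-2 LNA, 4.80, 5.18 and 4.17 with the mtLys LNA, and 19.2, 20.1 and 18.1 with the control LNA. All targeted libraries were far below all controls, with log2 fold changes of -2.05 ± 0.14, -2.06 ± 0.13 and -2.02 ± 0.13 (edgeR adjusted p = 4.67e-11, 7.27e-12 and 1.6e-11). ADM5 shares 15.1% of its exon length with CPT1C, so its reads are less certain. The paralog ADM2 fell with the mtAsn-1 LNA (-0.90 ± 0.14), the mtAsn-2 LNA (-0.64 ± 0.13) and the mtLys LNA (-1.26 ± 0.14), and 56.0% of its exon length overlaps MIOX. VEGFC, a growth factor for lymphatic vessels, rose with every LNA (0.51 ± 0.054 with the mtAsn-1 LNA, 0.22 ± 0.053 with the mtAsn-2 LNA and 0.45 ± 0.053 with the mtLys LNA), as did P3H1, a prolyl 3-hydroxylase of collagen (0.35 ± 0.041, 0.49 ± 0.040 and 0.41 ± 0.040). NDRG3, a paralog of NDRG1, fell with every LNA (-0.13 ± 0.044, -0.52 ± 0.043 and -0.11 ± 0.043; adjusted p = 0.0153, 4.96e-11 and 0.0292, edgeR). Leaving out control replicate 3 (0.0693) or mtAsn-1 replicate 1 (0.103) ended its mtAsn-1 call. Its mtLys call was lost without control replicate 1 (0.0699) or 3 (0.114) and without mtLys replicate 1 (0.0683), 2 (0.105) or 3 (0.0518).

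**Figure D5:**
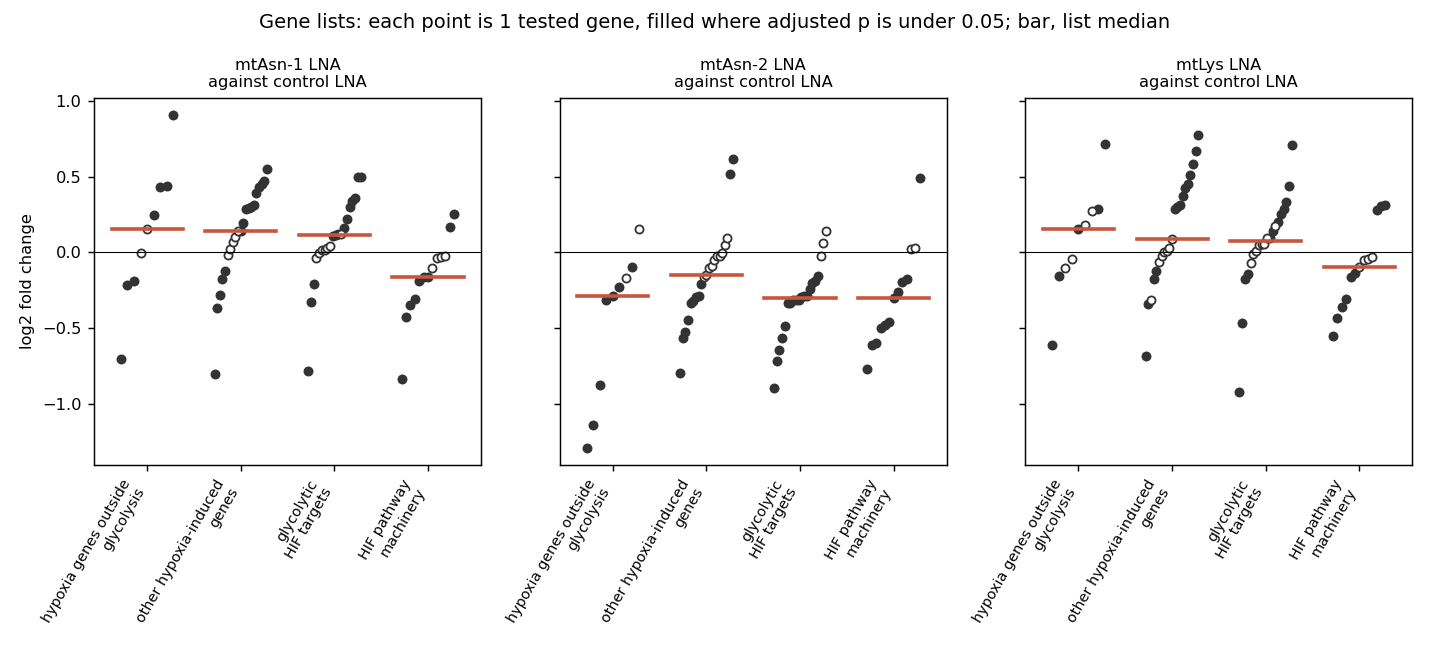
Log2 fold change against the control LNA of each tested gene (points, filled where the adjusted p is under 0.05) with the list median (bar) for the hypoxia genes outside glycolysis and 3 other lists, for the mtAsn-1 LNA, mtAsn-2 LNA and mtLys LNA. The medians of the hypoxia genes outside glycolysis (0.15, -0.29 and 0.16) and of the glycolytic HIF targets (0.11, -0.30 and 0.07) are below 0 with the mtAsn-2 LNA and above 0 with the other 2 LNAs.

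The profiles of EGLN3 and LOX over the 12 libraries were compared with those of 10844 genes by the root mean square difference of mean-centred log2 CPM, a description that is small for like profiles. The genes most like EGLN3 were KRT8, an intermediate filament keratin (0.096), APPBP2 (0.099) and TNFRSF10D, a decoy receptor for TRAIL (0.105), where the profile of EGLN3 itself had a root mean square of 0.461. KRT8 had log2 fold changes of -0.69 with the mtAsn-1 LNA, -1.12 with the mtAsn-2 LNA and -0.58 with the mtLys LNA, beside -0.70, -1.29 and -0.61 for EGLN3, a likeness that the choice itself fixes. The genes most like LOX were EDIL3, a secreted integrin ligand (0.086), LRRC1 (0.092) and MBOAT2 (0.095), where LOX itself had 0.463. EDIL3 had log2 fold changes of -0.24, -1.23 and -0.12 in the same order of LNAs, beside -0.19, -1.14 and -0.10 for LOX. EGLN1, although of the same family as EGLN3, was 0.360 from it, farther than LOX was (0.237). The measure also reflects the size of the changes, and the profile of EGLN1 itself had a root mean square of 0.120.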

How the data were processed

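The authors deposited 1 table of raw counts per gene for 12 libraries (4 groups of 3), with the exon length in bases of each gene. Per the labels' protocols, libraries were made from total RNA with the TruSeq RNA Library Kit v2. Per the submitters' processing notes the build was hg38 and the tools were FastQC, STAR 2.6.0a, featureCounts and DESeq2, with no roles or settings. The sources used here do not give strandedness or how shared reads were treated. 38 broken lines of 12 genes were left out. Counts were tested with edgeR 4.0.16 (R 4.3.3): TMM factors, a filter (minimum count 10, minimum total 15), 1 fit of all libraries, the robust quasi-likelihood F test and Benjamini-Hochberg adjustment over 16051 genes. The standard error is the log2 fold change divided by the square root of F. CPM and RPKM use TMM-scaled totals; log2 values use a prior count of 2. The scripts were tested on simulated counts. Alternatives were DESeq2 1.42.0, other scaling and filters, a replicate block, the compared groups alone, thinned libraries and each library left out.

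Named were all 10 genes, 6 HIF regulators, in each other list and comparison with control the 2 genes of smallest adjusted p in either direction (values are given for all 3 such comparisons), and the 3 genes most like EGLN3 and LOX. The genes and lists were chosen with earlier results of these data known. One gene that this rule names is not reported here.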

Additional observations from a re-analysis of the deposited data

How the results depend on the processing

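Every count of called hypoxia genes was recomputed under 19 alternatives, 12 of which leave out 1 library each. In the mtLys LNA comparison with the control LNA, the genes called higher were 5 (main count 3) with the compared groups alone and 2 to 4 with 1 library left out, and those called lower were 1 to 3. With 1 library left out, all tested genes called between the mtAsn-1 LNA and the mtLys LNA numbered 404 to 922 (845 in all, 120 to 395 higher and 275 to 527 lower), the lowest without mtLys replicate 2. The other counts stayed within 1.5 times their main count. The sign of P4HA1 with the mtAsn-1 LNA, -0.0047, reversed to 0.002 with the compared groups alone and lay between -0.0197 and 0.0198 with 1 library left out (above 0 without mtAsn-1 replicate 2 or control replicate 3). That of HIF1A, -0.0334, lay between -0.0921 and 0.0011 (above 0 without mtAsn-1 replicate 1). PFKL with the mtAsn-2 LNA, -0.0215, reached 0.0075 with no filter on low counts and lay between -0.0641 and 0.0137 with 1 library left out. TMEM45A with the mtLys LNA, -0.023, lay between -0.0804 and 0.0351 (above 0 without mtLys replicate 2). No reversed value passed the test. The cause was not tested. No sign of pairing by replicate number was seen, which does not exclude it. Correlations of deviations lay between -0.0991 and 0.0417 for same-numbered libraries and between -0.0978 and 0.123 for others. With the replicate block, hypoxia genes called were 8 with the mtAsn-1 LNA, 6 with the mtAsn-2 LNA and 5 with the mtLys LNA, against 7, 7 and 5 without it. ANKRD37 and EGLN2, which share 89.4% and 91.5% of their exon length with other genes, had too few counts for any comparison.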
